A study of Rattus norvegicus with 14 samples.

Results

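Intergenic DNA close to a gene start was followed across sperm methylation data of the rat. A region was taken when its deposited annotation began with the word Intergenic and its distance to the nearest start site was at most 10000 bp, and regions of different comparisons that shared at least 1 bp were counted as 1 locus. This gave 784 listed regions at 451 loci, of 8555 listed regions at 5019 loci in all. Sperm DNA of Wistar males of the F0 generation was read by reduced representation bisulfite sequencing, which samples fragments rich in CpGs, the cytosine-guanine pairs that carry DNA methylation. Reads that stay cytosine after bisulfite treatment give the percent methylation of a CpG. The 14 libraries fall into 4 groups. ELS-HFD males were maternally separated (early-life stress) and later fed a high-fat diet (3 libraries), ELS males were separated and kept on standard chow (4 libraries), HFD males stayed with the dam and received the high-fat diet (4 libraries), and control males stayed with the dam and received chow (3 libraries). Separation began at postnatal day 1 and took 3 h a day for 16 days, every group passed an elevated plus maze test at about postnatal day 57, and the diets began at postnatal day 60. The labels carry no genetic alteration. They do not say which libraries share a litter or come from pooled animals, so p-values over libraries measure only the spread between these samples.

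CpG-rich gene starts are mostly free of methylation, and the flanks of such islands, called shores, are where methylation usually climbs towards the high level of the rest of the genome. Intergenic sequence near a start can hold enhancers, alternative promoters or shores of the neighbouring gene, and a gene named by distance need not be the gene that such a sequence acts on. In sperm most of the genome is densely methylated, while starts of developmental genes stay unmethylated.

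The nearest starts of the loci that the results turn on are shown here to place the regions beside CpG-poor or CpG-rich sequence. They are the 250 bases upstream of the start in RefSeq on GRCr8, 5′ to 3′ on the gene's strand, with CpGs in capitals. Among the nearest genes of the 4 loci with a q-value under 0.05, Dpm3 (chr2:176974040-176974289, plus strand) and Hhat (chr13:106811564-106811813, minus strand) had a match.
Dpm3 promoter: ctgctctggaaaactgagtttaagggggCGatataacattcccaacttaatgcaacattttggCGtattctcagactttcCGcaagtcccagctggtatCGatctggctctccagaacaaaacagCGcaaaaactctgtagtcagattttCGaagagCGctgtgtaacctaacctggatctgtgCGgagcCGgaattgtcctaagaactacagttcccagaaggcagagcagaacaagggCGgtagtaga
Hhat promoter: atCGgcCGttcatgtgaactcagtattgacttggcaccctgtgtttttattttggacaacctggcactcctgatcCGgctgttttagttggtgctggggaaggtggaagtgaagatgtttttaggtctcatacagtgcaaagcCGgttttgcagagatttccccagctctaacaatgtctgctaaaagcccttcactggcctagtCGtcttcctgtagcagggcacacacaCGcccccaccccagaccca
The Dpm3 promoter holds 10 CpGs, more than 61.6% of the 27457 promoters in the RefSeq table, and the Hhat promoter holds 6, more than 48.3% of them. Mir1188 was among the loci listed in all 5 comparisons, so its mature products are shown as well (RefSeq, GRCr8, chr6:134348163-134348183 and chr6:134348201-134348217, plus strand), with the seed, bases 2 to 8, in capitals.
rno-miR-1188-5p: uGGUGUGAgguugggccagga
rno-miR-1188-3p: cGAGGCUCcccaccaca
The methylated regions themselves have coordinates of Rnor_6.0, per the submitters' processing notes, counted from 1, and their sequence is not printed.

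The tables list candidate regions of at least 10 CpGs with a difference of at least 2.5 percentage points, not only significant ones: the authors' deposited tables put the q-value at 1 for 770 of the 784 regions. Because regions were listed for their difference, differences, shares without overlap and limma p-values over these regions are a description. Read depth is unknown, since the tables give percentages only and no counting interval can be had. Errors here are SDs over libraries. Sperm markers gave a limited check of the label. Of 12 imprinted genes whose control regions lack methylation in sperm, 4 had listed regions (Gnas, Grb10, Igf2r and Zrsr1). Their 10 promoter regions stood at 1.45 to 5.43%, and all their 28 regions at 1.33 to 21.8%, the highest in a Zrsr1 intron. Listed promoter regions of any gene had a median of 2.56%, so low promoter values say little about the label. Of 12 germline genes 1 was listed (Dazl, 2.89 to 4.07%, in introns), and of 4 imprinted genes methylated in sperm 1 was listed (Dlk1, 15.9%), away from its promoter. The markers do not cover other cells of the ejaculate, and other cells in a sample and a change within sperm cannot be told apart in these bulk percentages.

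Near intergenic regions lay between promoters and distant intergenic DNA in methylation. Their median level, over both groups of a comparison, was 16.3% (quartiles 4.86 and 46.4%), against 2.56% at 1216 listed promoter regions and 21.2% at 2435 intergenic regions further from a start. The order near intergenic above promoter was seen in 34 of 34 library columns of the 5 tables, whose near intergenic medians ran from 9.07 to 23.6% and whose promoter medians from 0.994 to 5.46%. The order near below far intergenic was seen in 30 of 34. The columns show 14 libraries more than once and were not treated as replicates. Most regions were therefore either lowly or intermediately methylated: 313 were below 10%, 286 from 10 to 50%, 101 from 50 to 80% and 84 at 80% or more.

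**Figure D1:**
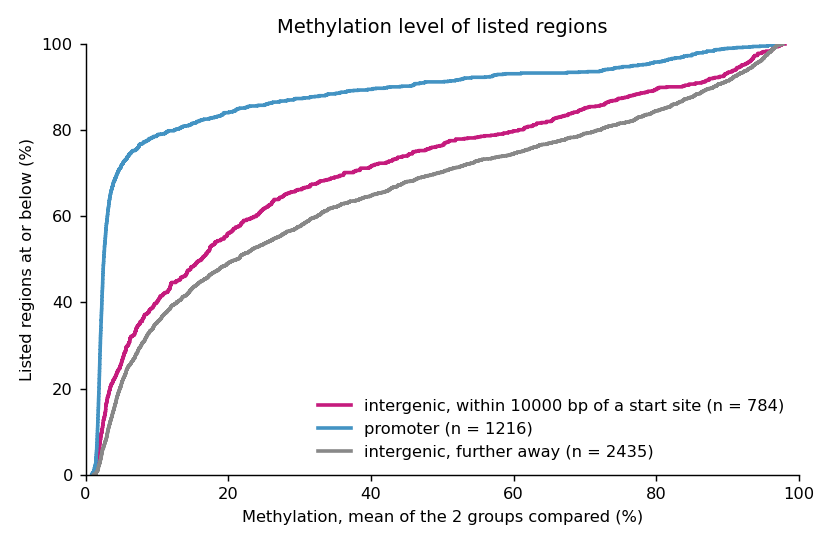
Cumulative share of listed regions (y axis, percent) at or below each methylation level (x axis, percent, mean of the 2 groups compared) for near intergenic, promoter and further intergenic regions. The curve of near intergenic regions lies between the other two, with a median of 16.3% against 2.56% at promoters and 21.2% further away.

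Position relative to the gene start was uneven. Upstream lay 579 regions and downstream 205, with distances from 1004 to 9987 bp and a median of 4891 bp. Upstream of starts the median level was 8.35% within 2000 bp and 13.0, 16.1, 17.4 and 13.1% in the following steps of 2000 bp. The 26 regions within 2000 bp downstream, beyond short genes, had a median of 49.98%, the highest of the 10 steps. Across the 784 regions, level and distance were nearly unrelated (Spearman correlation 0.0718, regions share libraries and loci), as were level and CpG density (Spearman correlation -0.0732). The nearest promoter was CpG-rich more often than a promoter at large: of 197 genes matched in RefSeq, of 381 named, 65.0% had 10 or more CpGs in 250 bases, against 38.4% of 27457 promoters. Regions beside these CpG-rich promoters had a median of 11.1% (216 regions) and regions beside poorer promoters one of 17.5% (134 regions). The nearest promoters of other listed regions were not counted, and the sequencing itself samples fragments rich in CpGs. Whether the 65.0% is particular to near intergenic regions was not tested.

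**Figure D2:**
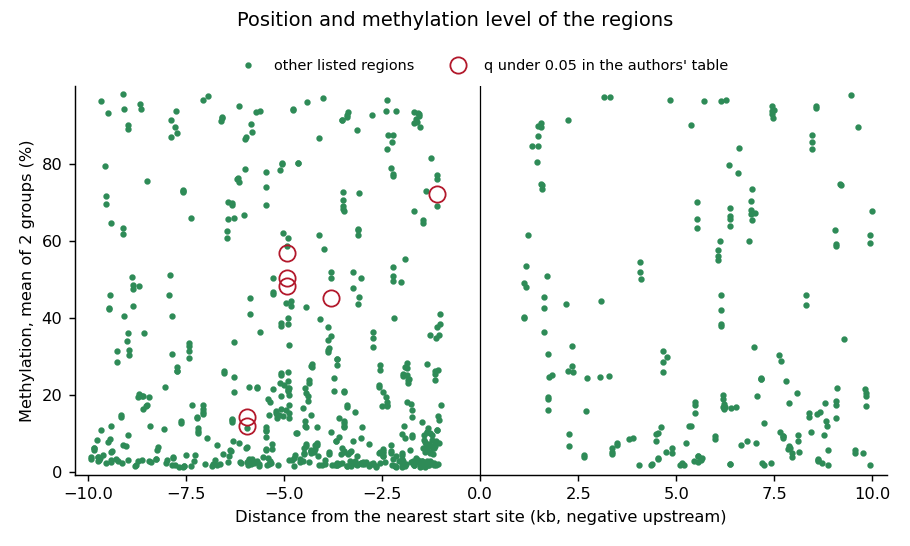
Methylation level (y axis, percent, mean of the 2 groups compared) of each of the 784 near intergenic regions against its distance from the nearest start site (x axis, kb, negative upstream), with rings on the 7 regions that the authors' deposited tables put under a q-value of 0.05. All 7 rings lie upstream, and low levels occur at every distance.

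The nearest gene was often no protein-coding gene of known role. Names of clones or numbered loci accounted for 240 regions at 134 loci and small RNA genes for 106 regions at 48 loci. Of these small RNA genes, 5.8S ribosomal RNA copies accounted for 41 regions, 7SK for 18, U6 for 13 and miRNA genes for 19. Small RNA genes other than miRNAs exist in many near-identical copies, and reads of different copies may not be separable, so these regions are uncertain. Regions beside small RNA genes had a median level of 41.8%, against 11.9% for the 434 regions beside other named genes. At the limit of the distance rule, the region inside nearest to it on the upstream side was Trmt10b at -9934 bp (1.998% in ELS-HFD and 6.14% in HFD libraries), and the first one outside was Slc6a4 at -10013 bp (5.21% in HFD and 0.905% in control libraries).

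At 4 near intergenic loci the authors' q-value was under 0.05, in 7 region and comparison pairs, and all 7 were decreases. The lower group was always of separated males. In 3 of the pairs, of ELS-HFD against control, the groups also differed in diet, and the 2 exposures cannot be told apart. Over all 8555 listed regions the q-value was under 0.05 in 58 (0.678%), and 48 of these were lower (0.561%). The loci lie near Dpm3, Btbd11, Hhat and AABR07009373.2, each upstream of the start. A q-value from this region caller treats CpGs as observations, so each is given with the libraries' values. No near intergenic region passed limma on library values in any comparison after Benjamini-Hochberg adjustment over the whole table.

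Dpm3 encodes a small membrane subunit that anchors dolichol-phosphate mannose synthase, the enzyme that supplies mannose for protein glycosylation and GPI anchors. The region of 24 CpGs about 4.9 kb upstream (chromosome 2, 188578655 to 188578842) stood at 50.6, 23.5 and 38.2% in ELS-HFD libraries, against 71.6, 61.5 and 56.6% in control libraries. All ELS-HFD libraries lay below all control libraries. The difference was -25.8 percentage points (37.4 ± 13.6% against 63.2 ± 7.62%, SD, n = 3 each). The authors' deposited table gave it a q-value of 1.08e-09. The limma test gave a log2 odds difference of -1.55 ± 0.50 (SE), unadjusted p = 0.0160 and Benjamini-Hochberg adjusted p = 0.139.

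In the same ELS-HFD libraries the region was set against HFD libraries at 57.8, 40.4, 65.3 and 72.5%. Here the groups overlapped, since the HFD library at 40.4% lay below the ELS-HFD library at 50.6%. The difference was -21.6 points. The authors' deposited table gave it a q-value of 6.43e-06, and limma gave an adjusted p of 0.192. ELS libraries, over 22 CpGs from 188578655 to 188578817, stood at 55.6, 45.2, 51.7 and 47.3%, against 72.6, 61.8 and 56.7% in control libraries. These groups did not overlap, though the ELS library at 55.6% and the control library at 56.7% were close. The difference was -13.8 points. The authors' deposited table gave it a q-value of 0.00345, and limma gave an adjusted p of 0.175. Leaving out each library in turn gave -32.4 to -18.9 points for ELS-HFD against control, -28.2 to -14.6 for ELS-HFD against HFD and -17.3 to -9.28 for ELS against control. The diet without separation was listed at this locus too, at 57.6 ± 15.0% in HFD libraries (n = 4) and 63.6 ± 8.40% in control libraries (n = 3), with overlap. Set against each other, ELS-HFD libraries had 50.7, 23.3 and 37.9% and ELS libraries 56.0, 45.5, 52.0 and 47.7%, which overlapped through the ELS-HFD library at 50.7%. Their difference, -13.0 points, shrank to -5.98 when the ELS-HFD library at 23.3% was left out.

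Btbd11 encodes a protein with a BTB domain and ankyrin repeats. Its region of 14 CpGs at -5955 bp (chromosome 7, 24319792 to 24319889) had low methylation. It stood at 2.07, 10.1 and 0.871% in ELS-HFD libraries, against 16.4, 19.7 and 22.2% in control libraries. ELS libraries stood at 4.49, 7.55, 15.6 and 8.32%, against the same control values. In both comparisons the groups did not overlap, and the ELS library at 15.6% came within 1 point of the lowest control. The differences were -15.1 points for ELS-HFD and -10.4 for ELS, with q-values of 2.24e-06 and 1.32e-05 in the authors' deposited tables and limma adjusted p-values of 0.113 and 0.129. Leaving out each library in turn gave -18.0 to -13.4 points for ELS-HFD and -12.6 to -8.93 for ELS. HFD libraries were spread from 6.17 to 27.0% with a median between 17.8 and 23.5%.

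Hhat encodes the acyltransferase that attaches palmitate to Hedgehog ligands in the secretory pathway. The region of 14 CpGs at -1096 bp (chromosome 13, 111475455 to 111475559) stood at 62.2, 65.2, 69.1 and 62.9% in ELS libraries, against 80.3, 74.1 and 83.3% in control libraries. All ELS libraries lay below all control libraries. The difference was -14.4 points. In the authors' deposited table its q-value was 6.03e-06, and limma gave -1.03 ± 0.30 (SE, log2 odds), unadjusted p = 0.00717 and adjusted p = 0.105. Leaving out each library in turn gave -16.9 to -12.3 points. In ELS-HFD libraries it was 80.5, 61.4 and 77.1%, so that 2 of 3 lay among the controls. HFD libraries stood at 59.7, 69.5, 84.1 and 85.5%, on both sides of the controls.

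AABR07009373.2, a gene known by a clone name, had its region at -3797 bp (chromosome 2, 94872583 to 94872909, 16 CpGs in this comparison). It stood at 25.6, 13.5 and 42.4% in ELS-HFD libraries, against 43.8, 60.9 and 84.4% in control libraries. The groups did not overlap, but the highest ELS-HFD library lay just below the lowest control. The difference of -35.9 points was the largest decrease of all 784 regions. The authors' deposited table gave it a q-value of 0.0182, and limma gave an adjusted p of 0.142. It was -25.2 points without the control library at 84.4% and -45.5 without the one at 43.8%. ELS libraries (43.4, 50.7, 35.8 and 22.7%) and HFD libraries (52.6, 37.6, 28.1 and 46.9%) overlapped with the controls in their own comparisons. Only ELS-HFD against control, which differ in both separation and diet, gave this locus a q-value under 0.05.

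**Figure D3:**
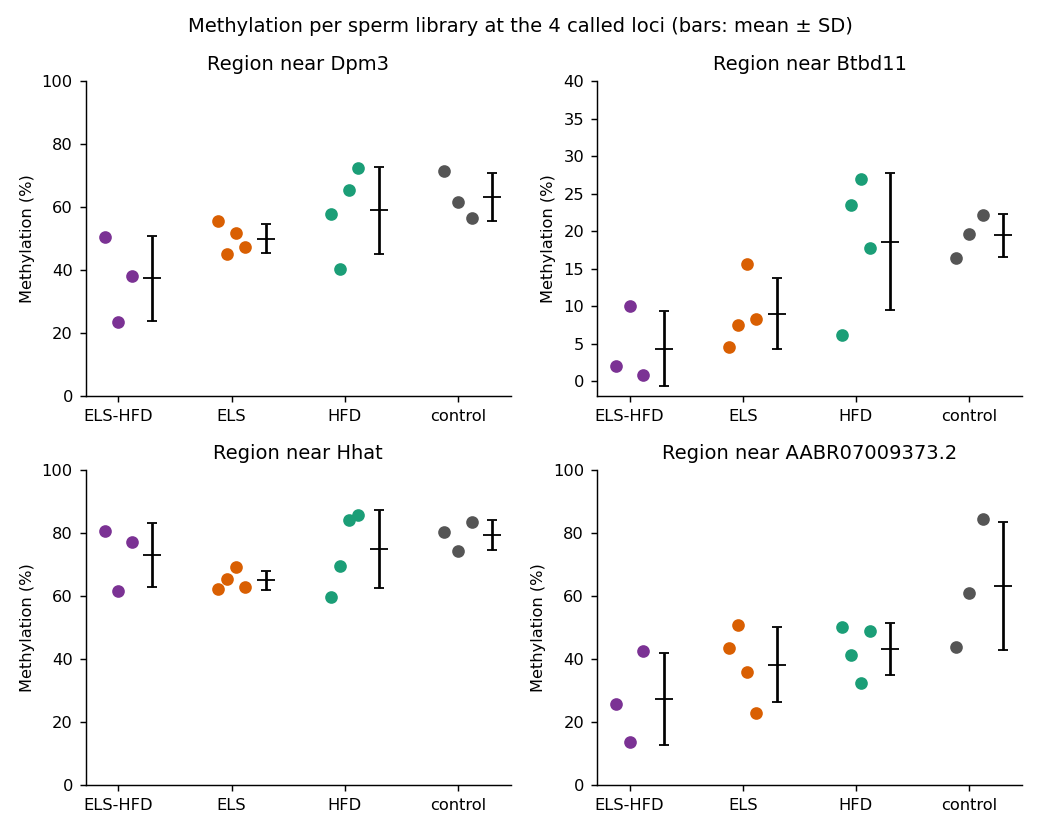
Methylation (y axis, percent) of each sperm library at the 4 loci under a q-value of 0.05, by group in the order ELS-HFD, ELS, HFD and control; points are libraries and bars the mean ± SD (n = 3, 4, 4 and 3). At Dpm3 and Btbd11 all ELS-HFD and ELS libraries lie below the controls, at Hhat the ELS libraries do, and HFD libraries are spread widely at Dpm3, Btbd11 and Hhat. At Dpm3 the ELS values cover 22 CpGs and those of the other groups 24. At AABR07009373.2 the ELS-HFD and control values cover 16 CpGs, HFD values 17 and ELS values 20.

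The ELS-HFD library with the lowest value at Dpm3, Hhat and AABR07009373.2 was also often the lowest of its group elsewhere. It was the lowest of 3 in 77 of 168 regions against control, 69 of 153 against HFD and 75 of 146 against ELS. Without it 107 of 168, 106 of 153 and 80 of 146 regions were lower in ELS-HFD, against 109, 109 and 82 with it. The regions were listed for differences that include this library, so these counts of signs could change little. Its part in the decreases was not tested.

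The comparison of ELS-HFD with control libraries asks about both exposures together. Of 168 near intergenic regions, 109 were lower and 59 higher in ELS-HFD. Lower were 64.9% of them and 70.0% of the 1867 listed regions. The authors' q-value was under 0.05 in 3, all lower, against 0.696% of all listed regions (0.589% called and lower). Groups of 3 and 3 libraries did not overlap in 70 of 168 regions, 41.7%, close to the 38.7% of all listed regions. limma passed 0 of the 168 after Benjamini-Hochberg adjustment, against 0.107% of all listed regions, and 47 had an unadjusted p under 0.05 (27.98%, and 27.9% of all listed regions).

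Beside the called regions, the largest decrease without overlap was near Ggnbp1, which encodes a gametogenetin-binding protein of the testis. At this region (chromosome 20, 5628928 to 5628986, 9945 bp downstream of the start) ELS-HFD libraries stood at 60.7, 56.7 and 46.0%, against 71.4, 66.0 and 68.3% in control libraries. Every ELS-HFD library lay below the controls, and the difference was -14.1 points. The largest increase was near LOC102549408 (chromosome 8, 13407378 to 13407457), where ELS-HFD libraries stood at 18.4, 20.5 and 34.6%, against 8.27, 11.9 and 10.9% in control libraries. The groups were well apart, and the difference of 14.1 points was 9.10 without the library at 34.6%. Pdpr, whose product regulates the phosphatase of pyruvate dehydrogenase, had 28.7, 20.6 and 19.3% in ELS-HFD libraries, against 19.3, 8.88 and 17.4% in control libraries. Here the lowest ELS-HFD and the highest control library met at 19.3% without overlapping, and the difference of 7.70 points was 4.55 without the control library at 8.88% and 4.77 without the ELS-HFD library at 28.7%.

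The comparison of ELS with control libraries asks about separation without the diet. Of 171 regions, 108 were lower and 63 higher in ELS, so that 63.2% were lower, against 60.9% of the 1849 listed regions. The authors' q-value was under 0.05 in 3, all lower, against 0.919% of all listed regions (0.811% called and lower). Groups did not overlap in 39 of 171 (22.8%), against 25.7% of all listed regions. limma passed 0 of 171 after adjustment, against 0% of all listed regions, and 40 had an unadjusted p under 0.05, against 26.9%.

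Ggnbp1 had the largest decrease without overlap in ELS libraries as well, while AABR07009373.2, with overlap, had the largest of all at -24.2 points. ELS libraries stood at 56.0, 50.5, 45.8 and 48.2%, against 71.4, 66.0 and 68.3% in control libraries. No ELS library reached the lowest control, and the difference was -18.4 points. This comparison shares its controls with the one of ELS-HFD, so these results are not independent. HFD libraries, over a longer interval near Ggnbp1 (5628931 to 5629068), averaged 62.97% against 72.4% in control libraries. The region near Gpr132, a G protein-coupled receptor of immune cells, had 12.2, 13.2, 18.6 and 2.10% in ELS libraries, against 27.1, 20.9 and 22.4% in control libraries, and the groups did not overlap. The largest increase without overlap was near AC124205.1, with 89.0, 77.5, 78.4 and 79.2% in ELS libraries, against 67.1, 70.3 and 67.1% in control libraries. LOC102549408 followed, with 22.3, 17.1, 20.3 and 14.9% in ELS libraries, against 7.91, 10.1 and 10.9% in control libraries.

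The comparison of HFD with control libraries asks about the diet without separation, and here more regions were higher than lower. Of 146 regions, 90 were higher and 56 lower in HFD. Lower were 38.4%, against 43.6% of the 1583 listed regions. The authors' deposited table had 0 of them under a q-value of 0.05, against 0.632% of all listed regions (0.379% called and lower). Groups did not overlap in 36 of 146 (24.7%), against 22.6%. limma passed 0 of 146 after adjustment, against 0%, and 41 had an unadjusted p under 0.05, against 22.8% of all listed regions.

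Near Nkx2-2, a homeobox factor of the ventral neural tube and the pancreas, HFD libraries stood at 13.7, 15.6, 13.3 and 11.0%, against 26.7, 16.5 and 17.3% in control libraries. All HFD libraries were lower, and the difference of -6.70 points was -3.43 without the control library at 26.7%. Near Ncmap, a glycoprotein gene of myelinating Schwann cells, HFD libraries stood at 76.0, 76.3, 77.7 and 78.9%, against 80.8, 81.7 and 86.2% in control libraries. Here too the groups did not overlap. The largest increase without overlap was near Togaram2, with 47.1, 52.4, 46.3 and 63.5% in HFD libraries, against 38.8, 38.5 and 43.7% in control libraries. The largest decrease without overlap, near a copy of U6, was -19.6 points (30.1 ± 7.92% in HFD and 49.7 ± 10.2% in control libraries, n = 4 and 3), with the reservation on copies. The largest increase of all was near Mir346, chosen here after its value was seen: HFD libraries stood at 12.8, 47.6, 72.4 and 40.8%, against 28.7, 9.12 and 16.5% in control libraries. Its groups overlapped through the HFD library at 12.8%, and the spread among HFD libraries exceeded the difference of 25.3 points.

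The comparison of ELS-HFD with HFD libraries asks about separation in males on the diet. Of 153 regions, 109 were lower and 44 higher in ELS-HFD. Lower were 71.2%, against 73.9% of the 1653 listed regions. The authors' q-value was under 0.05 in 1, the lower one near Dpm3, against 0.423% of all listed regions (0.363% called and lower). Groups did not overlap in 41 of 153 (26.8%), against 23.9%. limma passed 0 of 153 after adjustment, against 0%, and 36 had an unadjusted p under 0.05, against 25.2%.

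Kcnn3, a small-conductance calcium-activated potassium channel gene, had 5.24, 7.31 and 10.8% in ELS-HFD libraries, against 18.6, 17.6, 15.6 and 13.2% in HFD libraries. All ELS-HFD libraries lay lower, and the difference was -8.47 points. Irgq, of the immunity-related GTPase family, had 42.6, 42.8 and 44.2% in ELS-HFD libraries, against 47.2, 51.4, 54.9 and 60.4% in HFD libraries, again without overlap. Among increases, Crygn, a crystallin gene of the eye, had 25.1, 24.0 and 32.9% in ELS-HFD libraries, against 22.6, 22.3, 17.7 and 12.2% in HFD libraries. These groups came within 2 points of each other. Mir346 had the largest decrease of this comparison, 25.9, 3.37 and 12.01% in ELS-HFD libraries, against 6.04, 42.6, 54.5 and 43.0% in HFD libraries, with overlap through the HFD library at 6.04%.

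The comparison of ELS-HFD with ELS libraries asks about the diet in separated males. Of 146 regions, 82 were lower and 64 higher in ELS-HFD. Lower were 56.2%, against 61.9% of the 1603 listed regions. The authors' deposited table had 0 of them under a q-value of 0.05, against 0.686% of all listed regions (0.624% called and lower). Groups did not overlap in 43 of 146 (29.5%), against 24.1%. limma passed 0 of 146 after adjustment, against 0%, and 43 had an unadjusted p under 0.05, against 27.3%.

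Pou2f2, the gene of the B-cell transcription factor Oct-2, had the densely methylated region of chromosome 1, 82006137 to 82006188. ELS-HFD libraries stood at 97.1, 90.2 and 93.8%, against 87.1, 87.3, 87.9 and 89.1% in ELS libraries. All ELS-HFD libraries lay higher, by 5.86 points in the mean. Cacng4, which encodes an auxiliary subunit of AMPA receptors, had 96.6, 96.2 and 94.8% in ELS-HFD libraries, against 89.8, 90.7, 93.2 and 92.9% in ELS libraries, also without overlap. The largest decreases without overlap were near an RNase P RNA copy (-12.8 points), near AABR07065013.1 (-12.7) and near Vbp1 (-10.4). At AABR07065013.1 the difference was -7.71 without the ELS-HFD library at 70.2%. Near Vbp1 (chromosome 1, 148444700 to 148444887) ELS-HFD libraries stood at 1.00, 4.73 and 3.44%, against 15.9, 7.54, 17.6 and 13.0% in ELS libraries.

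**Figure D4:**
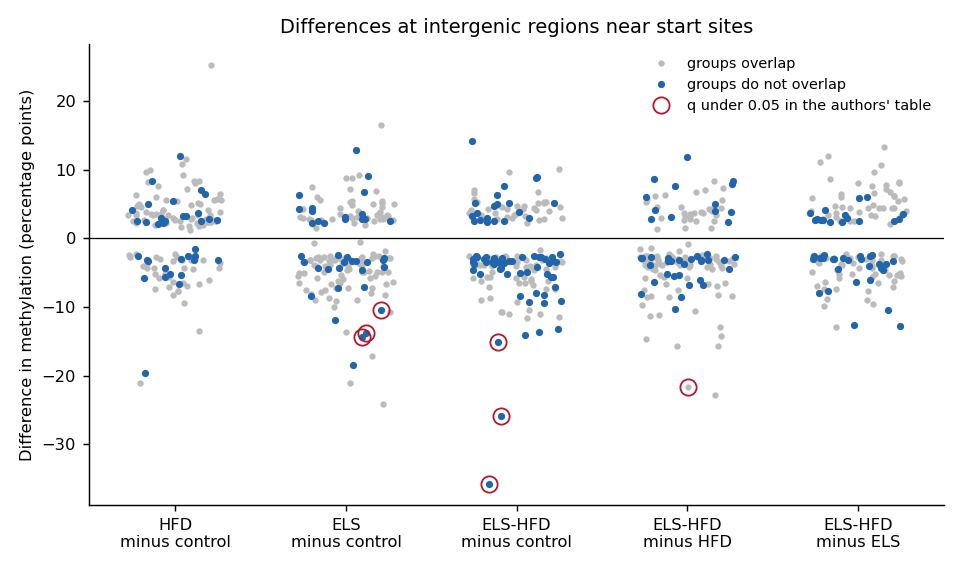
Difference in methylation (y axis, percentage points, first-named minus second-named group) of every near intergenic region in each of the 5 comparisons (x axis), with regions whose libraries do not overlap in blue and rings where the authors' deposited tables give a q-value under 0.05. The 7 rings lie below 0, in the 3 comparisons of separated with not separated males, of which ELS-HFD against control differs in diet as well.

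Separation was compared in 2 pairs of groups with no library in common, ELS against control and ELS-HFD against HFD. Of 169 loci in the first and 152 in the second, 51 were listed in both (30.2 and 33.6%). At 25 of them methylation was lower with separation in both, at 14 higher in both and at 12 opposite, so that 76.5% had the same sign, against 70.0% of 424 such loci over all regions. Dpm3, Btbd11 and AABR07009373.2 were lower in both. Dmrt3, a DM-domain factor of spinal interneurons, had 48.6 ± 10.5% in ELS and 57.6 ± 4.96% in control libraries, and 44.0 ± 8.16% in ELS-HFD and 55.3 ± 11.0% in HFD libraries. Its groups overlapped in both comparisons.

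At 3 of the 51 loci (5.88%) the libraries did not overlap in either pair, against 2.83% of the 424 loci over all regions. LOC102549408 was higher with separation in both, at 18.6, 19.104 and 35.4% in ELS-HFD libraries, against 9.22, 12.5, 16.9 and 11.6% in HFD libraries, beside the ELS and control values above. Without the ELS-HFD library at 35.4% its difference of 11.8 points was 6.28. Slc7a10, a transporter of small neutral amino acids, was also higher in both. It had 10.3, 9.57, 12.6 and 10.5% in ELS libraries, against 7.68, 6.06 and 5.20% in control libraries, and 8.16, 8.80 and 13.1% in ELS-HFD libraries, against 6.005, 5.17, 4.56 and 7.67% in HFD libraries. LOC685501 was lower in both, at 26.6, 29.7, 24.3 and 31.0% in ELS libraries, against 33.5, 35.4 and 36.2% in control libraries, and at 26.8, 12.8 and 26.4% in ELS-HFD libraries, against 26.9, 35.3, 29.0 and 29.4% in HFD libraries. In the second pair its highest ELS-HFD and lowest HFD library were 26.8 and 26.9%, and without the library at 12.8% the difference of -8.13 points was -3.53.

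The diet was compared in the same manner, HFD against control and ELS-HFD against ELS. Here 33 loci were listed in both (22.6 and 23.1%), with 10 lower in both, 10 higher in both and 13 opposite. The share with the same sign was 60.6%, against 54.3% of 357 such loci over all regions. AABR07009373.2 was lower in both, with differences of -21.1 points for HFD and -9.52 for ELS-HFD and overlap in both comparisons. The first was -9.87 without the control library at 84.8%. The second was -2.79 without the ELS-HFD library at 14.04%, -17.7 without the one at 43.9% and -5.16 without the ELS library at 50.1%. An RNase P RNA copy was opposite, higher by 11.6 points in HFD than in control and lower by 12.8 in ELS-HFD than in ELS. Its HFD and control libraries overlapped, and the first difference was 1.82 points without the control library at 29.6% and 21.4 without the one at 68.8%. The libraries did not overlap in either pair at 1 of the 33 loci (3.03%), against 2.24% of the 357 loci over all regions. It lay near rno-mir-3542-1, with 92.8, 88.7, 89.9 and 90.0% in HFD libraries, against 87.8, 86.9 and 87.8% in control libraries, and 91.6, 91.3 and 91.5% in ELS-HFD libraries, against 89.9, 90.4, 90.9 and 83.2% in ELS libraries.

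**Figure D5:**
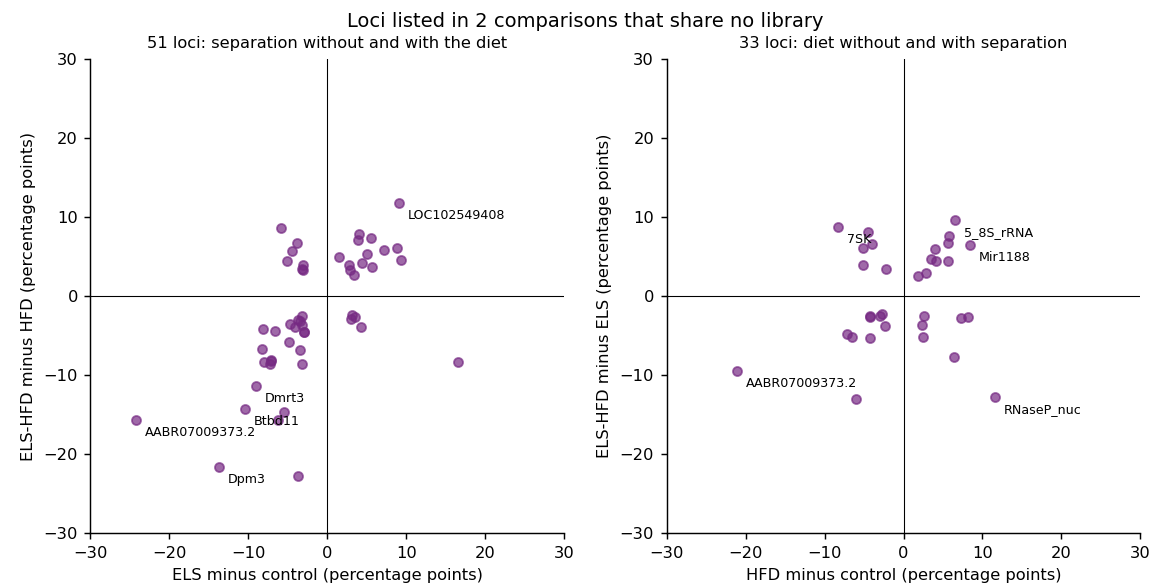
Difference in methylation (percentage points) of loci listed in 2 comparisons that share no library: left, ELS minus control (x axis) and ELS-HFD minus HFD (y axis) at 51 loci; right, HFD minus control (x axis) and ELS-HFD minus ELS (y axis) at 33 loci. On the left 39 loci have the same sign, on the right 20, and the 5 loci with the largest difference in both comparisons are named.

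The design of 2 diets by 2 rearing conditions allows the interaction to be fitted at loci with values of all 14 libraries. These loci were listed for differences between groups of the same libraries, so the p-values of the fit are a description. Of 669 such loci 70 were near intergenic. limma passed 0 of the 70 after Benjamini-Hochberg adjustment, against 0% of all 669, and 9 had an unadjusted p under 0.05, against 12.3%. The lowest p was near Hes3, of the Hairy family of repressors in the Notch pathway. Its HFD and control values cover chromosome 5, 169469037 to 169469256, and its ELS-HFD and ELS values the shorter interval 169469054 to 169469197. ELS-HFD libraries stood at 6.28, 2.98 and 4.34%, ELS libraries at 1.09, 0.303, 1.15 and 1.91%, HFD libraries at 1.39, 1.61, 1.28 and 4.53%, and control libraries at 4.60, 4.28 and 4.36%. Each exposure alone went with lower values, except in the HFD library at 4.53%, and both together stood near the controls. For ELS and ELS-HFD libraries this sets values of the shorter interval beside controls of the longer one. The interaction was 2.35 ± 0.53 (SE, log2 odds), unadjusted p = 0.000525 and limma adjusted p = 0.224, and without the HFD library at 4.53% the adjusted p was 0.0386.

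Syde2 had the opposite pattern (chromosome 2, 251853283 to 251853374 for ELS and control libraries, 251853283 to 251853366 for ELS-HFD and HFD libraries). ELS-HFD libraries stood at 1.32, 0.556 and 2.99%, ELS libraries at 4.92, 6.64, 4.82 and 6.18%, HFD libraries at 5.44, 6.17, 2.77 and 2.76%, and control libraries at 3.25, 2.58 and 0.610%. ELS libraries lay above the controls, and ELS-HFD libraries lay near the controls. The interaction was -2.33 ± 0.59 (SE, log2 odds), with a limma adjusted p of 0.224. Both loci stayed below 10% in every library.

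Of 9 gene lists, 8 had a nearest gene among the near intergenic regions, and none of their regions passed limma in any comparison. Homeobox and patterning transcription factors were the largest, with 15 genes and 18 regions at 16 loci, 8 lower and 10 higher, and a median level of 2.76%. Their median absolute difference was 3.00 points, against 3.92 over all 784 regions and 2.98 over the 313 regions below 10%. Near Hoxd9, a posterior patterning gene, ELS-HFD libraries stood at 38.7, 37.5 and 38.5%, against 36.5, 30.6 and 32.2% in control libraries. Near Nkx2-5, a cardiac homeobox factor, ELS libraries stood at 1.00, 0.857, 0.481 and 1.36%, against 5.28, 5.74 and 2.26% in control libraries. Both of these groups were apart without overlap. Near Foxl2, a forkhead factor of the ovary, ELS-HFD libraries stood at 34.0, 21.3 and 14.1%, against 20.9, 16.6 and 10.8% in control libraries, with overlap.

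Signalling lists had few members. The list of Wnt, Hedgehog, Notch and TGF-beta signalling had 3 genes (Hhat, Hes3 and Smad5) in 7 regions at 3 loci, 5 of the regions lower. Regions of the same locus overlap and are not separate results. Smad5, a transducer of bone morphogenetic protein signals, had 0.931, 0.204, 0.227 and 1.79% in ELS libraries, against 6.58, 3.16 and 0.747% in control libraries, with overlap. Stress hormone and neurotrophin signalling had Nr3c2 alone, the mineralocorticoid receptor, lower in 2 of 2 regions. These overlap at 1 locus and share the control libraries. At the first (chromosome 19, 34758175 to 34758588), ELS libraries stood at 0.806, 0.910, 1.29 and 0%, against 1.80, 10.3 and 2.68% in control libraries. All ELS libraries lay lower, but the difference of -4.19 points was -1.49 without the control library at 10.3%. At the second, ELS-HFD libraries stood at 1.67, 0.527 and 0.143%, against 1.70, 6.07 and 2.93% in the same controls, whose lowest value was almost met by an ELS-HFD library.

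Ion channels and receptors had Kcnn3 and Htr3a, 3 regions lower and 3 higher, at 3 loci. Htr3a, the A subunit of the serotonin-gated channel, had 23.7, 29.0, 20.004 and 30.4% in HFD libraries, against 18.3, 14.1 and 20.6% in control libraries, overlapping slightly. Insulin and lipid metabolism had Dgat1 alone, the last enzyme of triglyceride synthesis. HFD libraries stood at 3.65, 6.61, 10.2 and 4.06%, against 2.84, 1.49 and 3.68% in control libraries. A second region, which overlaps the first at 1 locus, stood at 2.34% in ELS-HFD and 5.22% in HFD libraries. Both Dgat1 comparisons had overlapping libraries. Among chromatin regulators, the Polycomb gene Cbx8 had 0.588, 0.253 and 0.462% in ELS-HFD libraries, against 3.29, 4.61 and 1.83% in control libraries, without overlap.

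Germline genes had Tdrd9, a helicase of the piRNA pathway in the male germ line of the mouse, with 0, 1.29, 0 and 0% in HFD libraries, against 2.82, 4.36 and 3.17% in control libraries. The groups did not overlap, at levels where a few reads decide a value. Axon guidance and cell adhesion had Ephb2, Pcdh1 and Sema6b, 1 region higher and 2 lower, each with overlapping libraries. Sema6b, a transmembrane semaphorin, averaged 45.7 ± 7.99% in ELS and 54.8 ± 5.97% in control libraries (n = 4 and 3). No imprinted gene of the 41 on that list was the nearest gene of a near intergenic region.

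The locus downstream of Mir1188 lies in an imprinted miRNA cluster, between Mir341 and Mir370 in the RefSeq gene order on GRCr8. Its 5 listed regions (chromosome 6, 133734672 to 133734810) had levels of 40.2 to 61.5%, of which 3 were lower and 2 higher in the first-named group. ELS libraries stood at 54.6, 39.0, 35.4 and 48.1%, against 55.5, 51.1 and 47.8% in control libraries. ELS-HFD libraries stood at 64.4, 55.8 and 53.4% over a shorter interval, against 72.5, 54.9 and 68.3% in control libraries. Both pairs of groups overlapped, and the HFD libraries, at 48.0, 55.1, 33.7 and 76.0%, were the most spread, against 47.4, 49.2 and 37.9% in control libraries. Of the other miRNA genes, Mir23a stood at 1.28 to 1.71% and Mir10a at 91.1 to 92.0%, each in 3 listed regions that share libraries.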

How the data were processed

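Trim Galore, Bismark and Bowtie with the assembly Rnor_6.0 were used on the reads, without versions, per the submitters' processing notes. The authors' deposited tables, 1 per comparison, list metilene regions, per the file headers. They give methylation in percent per library and per group (0 to 100), the count of CpGs per region as deposited, a difference between groups (a score in percentage points, per the file headers), and p-values and q-values by the authors. The annotation tool is not given in the sources used here. Sample labels and tables describe sperm RRBS and were followed, although the series' design text mentions amygdala RNA. Group codes of the columns are not explained in the labels. They were read by their letters and number of columns. At member regions with identical coordinates in 2 tables, 82.9 to 100% of the values matched within 1e-06 in the same library column and 0 matched in another.

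Means, SDs and differences were computed from the library columns. They departed from the deposited differences by at most 5.15 points, by over 1 in 59 of the 784 regions, and never in sign. Log2 odds, log2((percent + 1)/(100 - percent + 1)), were fitted with limma 3.58.1 (R 4.3.3) over every listed region of a table, with Benjamini-Hochberg adjustment. In simulated data with the regions' own spread, the fit recovered 11.9 to 29.9% of planted shifts of 1 log2 odds, depending on the comparison. It recovered 50.7 to 83.6% of shifts of 2 and 87.9 to 98.5% of shifts of 4. In each comparison 67, 67 and 66 regions carried shifts of 1, 2 and 4. The Benjamini-Hochberg cut-off depends on how many regions change, so these rates are not the power of the fit in the deposited data. A count of 0 past limma does not show that methylation was unchanged. Figures and tables were made with Python 3.11.15. The interaction fit took loci whose intervals in 2 or 3 comparisons overlapped by at least 50%. A region was named if its q-value was under 0.05, if it had 1 of the 4 largest increases or decreases without overlap in its comparison, if its locus was among the 12 listed in most tables, if it led a gene list, or if it led the loci common to comparisons without shared libraries. Not all regions that the rule takes are printed, 1 named item is not reported here, and a few outside it are (Mir346, Mir10a, Mir23a, and loci without overlap in both pairs), chosen after their values were seen. The members and lists were chosen with earlier results of these data known. Alternatives were another offset, the percent scale, a CpG minimum, stricter q, larger difference, shorter distance, wider overlap and leaving out each library.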

Additional observations from a re-analysis of the deposited data

Results flagged for a closer look

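In groups of 4 libraries, a highest or lowest library far from the other 3 was found in 3 of 78 groups of named regions, where chance flags about 5% of groups. Near Tdrd9 the HFD libraries were at 0% except for 1 at 1.29%. Near AC124205.1 an ELS library stood at 89.0%, with the other 3 at 77.5 to 79.2%. Near Kazald1 an HFD library stood at 30.5%, with the other 3 at 23.6 to 24.3%, while the 3 ELS-HFD libraries of that comparison stood at 20.1, 18.9 and 17.2%.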

How the results depend on the processing

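Counts of regions under the authors' q-value stayed within 1.5 times under 23 of 25 alternatives. The exceptions were ELS against control and ELS-HFD against control at a minimum of 20 CpGs, an alternative chosen after seeing the data, with 1 region each (near Dpm3) in place of 3. These alternatives can only remove regions, so HFD against control and ELS-HFD against ELS, with 0 regions, could not change. A loss of 1 region of 3 also counted as within 1.5 times. limma passed 0 near intergenic regions in each comparison under 49 of 49 alternatives, so the range without each library in turn was 0 to 0. The interaction count ranged from 0 to 1 over 16 alternatives, with 1 locus, near Hes3, without the HFD library at 4.53%. The number of loci, 451, was 518 with an overlap of at least 50% and 235 with a distance of at most 5000 bp. No paired analysis was possible because the table columns carry no replicate numbers.

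Of 688 differences of named regions recomputed without 1 library, 682 kept their sign and 6 reversed. Many named regions were chosen for groups without overlap, where leaving out 1 library cannot reverse the sign. The count of kept signs is therefore no measure of stability. Leaving out each library, HFD minus control ran from -1.69 (without the control library at 58.2%) to 6.54 at AABR07035813.1, from -8.09 to 0.515 (without the HFD library at 59.7%) at Hhat and from -10.9 to 0.539 (without the HFD library at 37.9%) at Dpm3. ELS-HFD minus control ran from -20.4 to 2.21 (without the ELS-HFD library at 28.9%) at AABR07035813.1. ELS-HFD minus ELS ran from -2.30 (without the ELS-HFD library at 61.02%) to 11.7 at Mir1188 and from -0.880 (without the one at 34.8%) to 7.65 at LOC102549408. The authors' deposited tables gave none of the 6 a q-value under 0.05, and the cause was not tested. Depth, unknown here, limits values close to 0 or 100%.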

Other observations

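The following 4 genes lie outside the lists and were picked after their values were seen. Near Gsx1, a homeobox gene of the forebrain, ELS-HFD libraries stood at 0.649, 0.835 and 0%, against 2.17, 4.48 and 2.77% in control libraries, and HFD libraries at 0.869, 0.504, 0 and 1.11%, against 1.49, 3.08 and 1.90% in control libraries of their own table. Neither pair of groups overlapped, and they share the control libraries. Near Neurog2, a proneural factor, HFD libraries stood at 1.12, 1.83, 0 and 1.59%, against 4.14, 3.51 and 3.55% in control libraries, without overlap. Near Hesx1, a homeobox gene of the pituitary, ELS-HFD libraries stood at 6.65, 10.7 and 4.75%, against 3.39, 3.10 and 4.63% in control libraries, with the closest values just apart. Near Fezf1 a single ELS-HFD library stood at 12.6%, with the others at 0.993 and 0.284%, against 0.737, 1.09 and 1.29% in control libraries.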
